A study of Mus musculus with 27 samples.

Results

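Matrix metalloproteinases (MMPs) and their tissue inhibitors (TIMPs) were followed in mouse cerebral cortex through the first day after a transient stroke. The 10 genes were chosen by symbol, 6 for proteinases (Mmp2, Mmp3, Mmp9, Mmp12, Mmp14 and Mmp19) and 4 for inhibitors (Timp1, Timp2, Timp3 and Timp4), out of 22340 rows in the count table. All animals were wild-type C57BL6 mice of 7 to 8 weeks, and all tissue was cortex. In the stroke model (MCAO, middle cerebral artery occlusion) a nylon suture blocked the right middle cerebral artery for 35 min under isoflurane, and ipsilateral (occluded side) and contralateral cortex was taken 3, 6, 12 or 24 h after the suture was withdrawn. Sham animals had anaesthesia and exposure of the arteries without the suture. The 27 libraries formed 9 groups of 3: ipsilateral cortex at each of the 4 times, contralateral cortex at each of the 4 times, and sham cortex. The labels give neither a time nor a hemisphere for sham tissue, and do not say whether ipsilateral and contralateral tissue came from the same animals. Replicate numbers mark separate days of surgery.

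MMPs are zinc-dependent proteinases that are made as inactive proenzymes and cut proteins of the extracellular matrix and the basement membrane. TIMPs bind their active sites and block them. In brain ischaemia MMPs are known for attacking the basal lamina and tight junctions of blood vessels, and for later roles in repair. RNA levels, which were measured here, do not report proenzyme activation or enzyme activity.

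Mmp3 and Mmp12 lie in a run of 10 MMP genes on mouse chromosome 9 (mm10, GENCODE M21, chr9:7272514-7699585), and their starts lie 101.4 kb apart. They were the members with the lowest levels in sham cortex and the highest ipsilateral to contralateral ratios at 24 h. Their promoter windows are shown because both hold the AP-1 motif TGANTCA, which reads the same on both strands and binds Fos and Jun proteins. Each window runs from 250 bases before to 50 bases after a RefSeq transcript start (GRCm38.p6, plus strand), with the motif in capitals. The Mmp3 window is chr9:7445572-7445871 and the Mmp12 window is chr9:7347124-7347423.
Mmp3: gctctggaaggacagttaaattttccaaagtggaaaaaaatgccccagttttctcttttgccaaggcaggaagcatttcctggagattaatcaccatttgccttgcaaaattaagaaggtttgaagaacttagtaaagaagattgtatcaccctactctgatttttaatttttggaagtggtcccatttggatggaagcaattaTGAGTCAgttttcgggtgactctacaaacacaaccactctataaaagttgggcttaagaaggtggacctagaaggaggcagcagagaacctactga
Mmp12: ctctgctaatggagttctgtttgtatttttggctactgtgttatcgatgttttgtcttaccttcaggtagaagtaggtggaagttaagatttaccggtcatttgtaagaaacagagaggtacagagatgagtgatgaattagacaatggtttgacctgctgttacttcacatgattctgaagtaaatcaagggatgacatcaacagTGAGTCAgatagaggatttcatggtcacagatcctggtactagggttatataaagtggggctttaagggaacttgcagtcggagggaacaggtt
The motif began 46 bases before the start in Mmp3 and 44 bases before it in Mmp12, with the letters tgagtca in both. Of 32817 distinct mouse promoter windows of this length, 7.81% hold it. Of the 7 members with an entry in the promoter table, these 2 held the motif, and a second Mmp12 window at an upstream start (chr9:7344147-7344446) did not. Mmp2, Mmp9 and Mmp19 had no entry. A match describes these letters and does not show that a factor binds there.

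Levels are CPM, counts scaled to TMM-adjusted library size, and differences are log2 fold changes from edgeR's quasi-likelihood test. Their standard errors (SE) were derived as the absolute log2 fold change divided by the square root of the F statistic. They are approximate, above all where a group is near 0 counts. A gene was called at an adjusted p (Benjamini-Hochberg over 18087 tested genes) under 0.05. Library totals ran from 26505996 to 48830897 counts. In every library 68.8% to 76.6% of the counts between 1 and 20 were even, as when both mates of a read pair are counted, so floors for a group at 0 counts were set at 6 counts (3 read pairs) over the group. All 7 cortical neuron markers had counts in every group, with summed levels of 1350 to 2300 CPM in ipsilateral, 2110 to 2510 CPM in contralateral and 2120 to 2480 CPM in sham libraries. The 2 mitochondrial ribosomal RNA rows took 40.4% of the counts in ipsilateral replicate 1 of 24 h and 36.7% in contralateral replicate 1 of 3 h, and these libraries stood apart, against 24.4% to 33.9% in the other libraries. In these bulk samples, fewer cells of a type and less RNA per cell cannot be told apart.

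In sham cortex the inhibitors stood above most of the proteinases among the chosen members. On the scale of CPM per kb of exons, Timp2 had 56.1 ± 4.27, Timp3 7.35 ± 0.57 and Timp4 3.44 ± 0.282 (SD, n = 3 each), and no sham library of one overlapped the next. Timp1 (0.594 ± 0.301), Mmp14 (0.527 ± 0.0273) and Mmp2 (0.406 ± 0.0903) followed, and neighbours among these 3 overlapped. When the length of the longest principal transcript was used, Mmp14 stood above Timp1. Below them came Mmp9 (0.239 ± 0.028) and Mmp19 (0.164 ± 0.0337), without overlap. Mmp12 had 4 counts in 1 of the 3 sham libraries and Mmp3 had none. At 24 h in ipsilateral cortex the order was different, with Timp2 at 43.2 ± 2.11, followed by Mmp3 (8.94 ± 10.6), Timp1 (8.92 ± 6.51), Timp3 (6.93 ± 1.3) and Timp4 (4.54 ± 0.181). Mmp14 (1.21 ± 0.492), Mmp12 (1.07 ± 1.3), Mmp19 (0.753 ± 0.139), Mmp9 (0.66 ± 0.211) and Mmp2 (0.313 ± 0.0343) stood below. The wide spread of Mmp3, Mmp12 and Timp1 at 24 h leaves their places in this order open to the choice of library. The lowest ipsilateral library of each had 0.178, 0.149 and 3.38 on this scale. Both orders cover the chosen members only and leave out more abundant MMP genes. In contralateral cortex at 24 h, for example, Mmp17 averaged 131 CPM and Mmp16 48.1 CPM.

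Every member that was called was higher in the first-named group of its comparison. The number called in ipsilateral cortex grew with time, and so did the share called of all tested genes. For ipsilateral against contralateral cortex no member was called at 3 h, against 0.249% of all tested genes. At 6 h Mmp12 alone was called (7.99% of tested genes), at 12 h Mmp12 and Mmp19 (12.2%), and at 24 h Mmp3, Mmp12, Mmp19, Timp1 and Timp3 (19.1%). The median log2 fold change of the 10 members was 0.35, 0.24, 0.33 and 0.66 at the 4 times in order, with medians over all genes between -0.02 and 0.03. For ipsilateral cortex against sham, which shares the ipsilateral libraries with the first comparison, no member was called at 3 h (0.243% of tested genes), and Mmp12 and Mmp19 were called at 6 h (6.11%). Timp1 joined Mmp12 and Mmp19 at 12 h (10.3%), and Mmp3, Mmp9, Mmp12, Mmp14, Mmp19, Timp1 and Timp4 were called at 24 h (22.2%). For contralateral cortex against sham no member was called at 3 h (0.0111%) or 6 h (0.0332%), and Timp4 was called at 12 h (0.238%) and 24 h (0.111%). At unadjusted p under 0.05 the contralateral comparison had 0, 2, 3 and 3 members at the 4 times. DESeq2 called 0 members in the 3 h comparisons of ipsilateral cortex and in the contralateral comparisons at 3 and 6 h. At 3 h an unadjusted p under 0.05 was reached by 1 member against contralateral cortex and by 2 against sham. Of the 10 members, 8 passed the filter on low counts without the ipsilateral libraries. Mmp3 and Mmp12 passed only with them, so their presence among the tested genes already required ipsilateral counts.

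**Figure D1:**
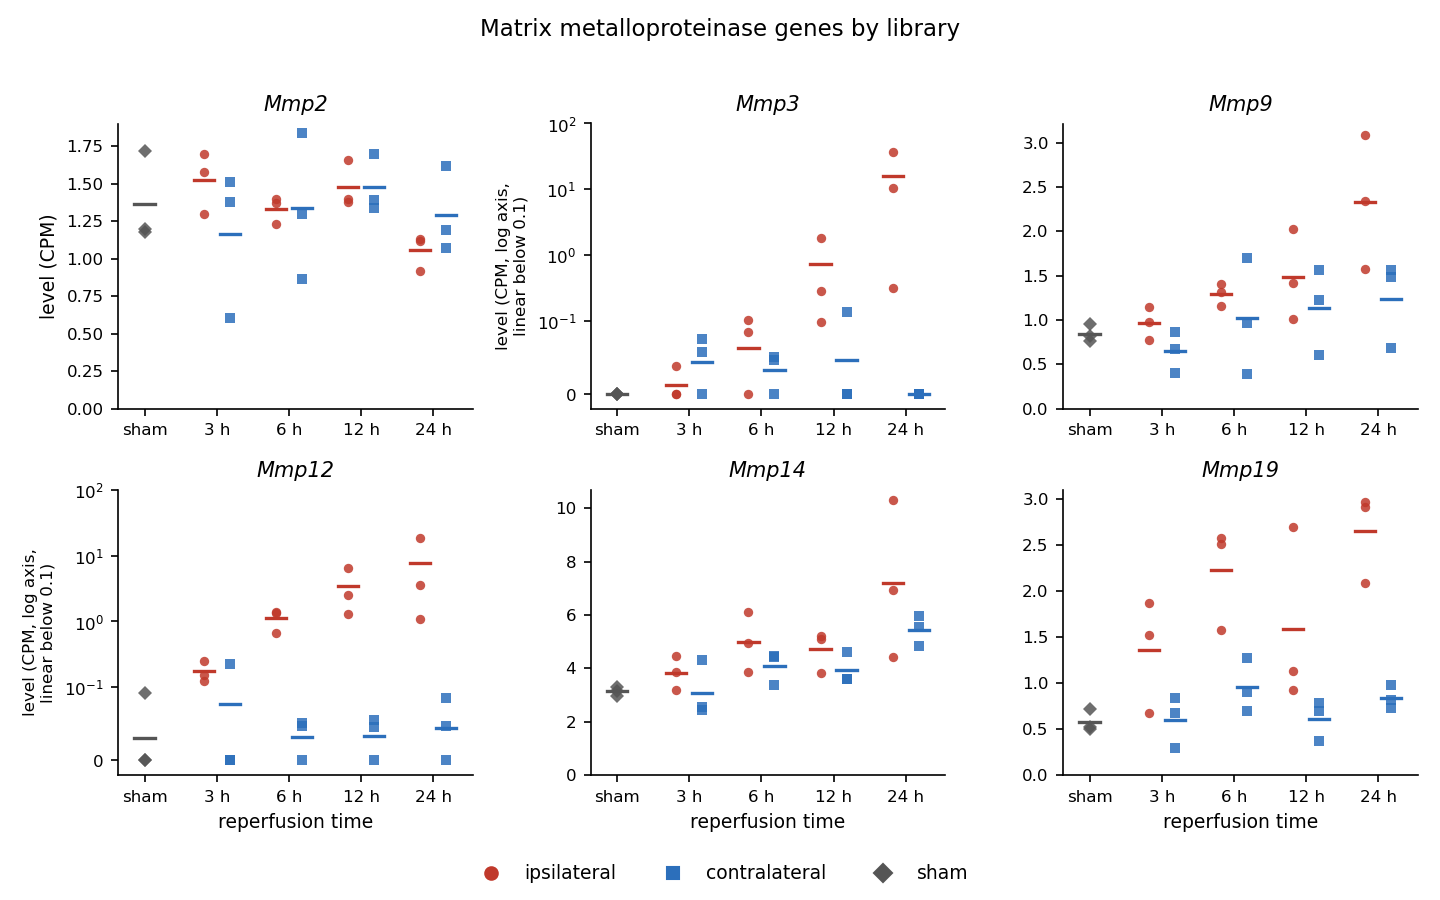
Level in CPM of the 6 MMP genes in each of the 27 libraries by reperfusion time, with sham at the left; red circles are ipsilateral, blue squares contralateral and grey diamonds sham libraries, bars are means of 3, and the axes of Mmp3 and Mmp12 are logarithmic above 0.1 CPM and linear below. Mmp12 stands above every contralateral library from 6 h on, and Mmp3 in ipsilateral cortex at 24 h spans 0.32 to 37.4 CPM while the contralateral and sham libraries are at 0.

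Mmp3 encodes stromelysin-1, a secreted proteinase with many matrix substrates that can also activate other pro-MMPs (chr9:7445822-7455975). At 24 h its level was 37.4, 10.6 and 0.32 CPM in ipsilateral replicates 1, 2 and 3 (1362, 378 and 16 counts), against 0 counts in all 3 contralateral and all 3 sham libraries. The groups did not overlap, but ipsilateral replicate 1 held most of the counts and replicate 3 very few. Pooled over the group, Mmp3 was at least 318-fold higher than in contralateral cortex and at least 291-fold higher than in sham, and without ipsilateral replicate 1 at least 102-fold and 93-fold higher. These bounds hold for pooled counts and cover counting error only, not the spread between samples or the level of each library. The edgeR adjusted p was 0.00209 against contralateral cortex and 0.00191 against sham. Without ipsilateral replicate 1 the values were 0.00377 and 0.00335. Both calls were lost when only the libraries of the 2 groups were fitted (adjusted p 0.273 and 0.25), where the spread is not shared with the other groups. Mmp3 passed the low-count filter only with the ipsilateral libraries, so being tested already required ipsilateral counts. At 12 h the ipsilateral libraries had 14, 4 and 78 counts and the contralateral ones 0, 6 and 0, which pooled to a ratio of 13.8 (95% counting interval 4.44 to 69.2, adjusted p 0.208). Against sham, with 0 counts, all 3 ipsilateral libraries of 12 h were higher, by at least 14.6-fold when pooled, with an adjusted p of 0.112 in edgeR and 0.0157 in DESeq2. Ipsilateral replicate 3 of 12 h, at 1.8 CPM, stood above ipsilateral replicate 3 of 24 h. At 3 and 6 h no library of either hemisphere had more than 4 counts.

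Mmp12 encodes macrophage elastase, a secreted proteinase made mainly by macrophages (chr9:7344381-7369499). It was the member called at the earliest time against contralateral cortex, and shared that place with Mmp19 against sham. At 6 h it had 0.678, 1.36 and 1.37 CPM in ipsilateral cortex, against 0, 0.0466 and 0.0509 CPM in contralateral cortex. At 12 h it had 2.55, 1.32 and 6.59 CPM in ipsilateral cortex, against 0.0557, 0.0463 and 0 CPM in contralateral cortex. The 24 h levels were 18.5, 3.63 and 1.08 CPM in ipsilateral cortex, against 0.0849, 0.0468 and 0 CPM in contralateral cortex. At each of these times every ipsilateral library stood above every contralateral and every sham library, and sham had 0.0926, 0 and 0 CPM. The pooled ratio of ipsilateral to contralateral counts was 36 at 6 h (95% counting interval 9.69 to 305), 100 at 12 h (27.5 to 834) and 156 at 24 h (53 to 759). The log2 fold change was 5.03 ± 1.32 (SE, edgeR adjusted p 0.023) at 6 h, 6.53 ± 1.26 (adjusted p 0.00201) at 12 h and 7.33 ± 1.19 (adjusted p 0.000349) at 24 h. Against sham it was 4.99 (adjusted p 0.0294), 6.61 (0.00223) and 7.75 (0.000257) at the same times. Mmp12 passed the low-count filter only with the ipsilateral libraries, so being tested already required ipsilateral counts.

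The Mmp12 calls at 12 and 24 h held without any single library, while the 6 h calls did not. Leaving out contralateral replicate 1, 2 or 3 gave an adjusted p of 0.092, 0.0783 or 0.0788 for the 6 h contrast with contralateral cortex, and leaving out ipsilateral replicate 2 gave 0.0754. For the 6 h contrast with sham the values were 0.0648, 0.126 and 0.105 on dropping sham replicate 1, 2 or 3 (log2 fold change 8.53 and 4.4 without replicates 1 and 2), and 0.0916 and 0.0516 on dropping ipsilateral replicate 2 or 3. The size at 24 h rested partly on 1 library, since the log2 fold change against contralateral cortex was 5.6 without ipsilateral replicate 1 and 8.19 without contralateral replicate 1. At 12 h it was 5.69 without ipsilateral replicate 3. Against sham the log2 fold change was 11.29 at 24 h and 10.15 at 12 h without sham replicate 1, which held all the sham counts and whose loss leaves a group at 0, 7.16 and 6.02 without sham replicate 2, 6.03 at 24 h without ipsilateral replicate 1, and 5.76 at 12 h without ipsilateral replicate 3. With only the libraries of the 2 groups the 24 h adjusted p was 0.0589 against contralateral cortex and 0.0588 against sham. At 3 h Mmp12 had 0.247, 0.156 and 0.124 CPM in ipsilateral cortex, against 0.23, 0 and 0 CPM in contralateral cortex, and the groups overlapped. Its exons share 157 bases with those of Mmp1b on the opposite strand, and Mmp1b had 11 counts over all 27 libraries.

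Mmp19 encodes a secreted MMP that cleaves basement membrane proteins (chr10:128790910-128800824). It rose in ipsilateral cortex at 24 h against both other groups. At 24 h it had 2.97, 2.09 and 2.92 CPM in ipsilateral cortex, against 0.976, 0.726 and 0.813 CPM in contralateral cortex and 0.718, 0.501 and 0.525 CPM in sham. The groups did not overlap, and the log2 fold change was 1.66 ± 0.4 against contralateral cortex (adjusted p 0.00412) and 2.19 ± 0.41 against sham (0.000435). At 6 h it had 2.52, 2.58 and 1.58 CPM in ipsilateral cortex, against 0.908, 0.699 and 1.27 CPM in contralateral cortex. All 3 ipsilateral libraries were higher here too, with an adjusted p of 0.00407 against sham (log2 fold change 1.93 ± 0.41) and of 0.0544 against contralateral cortex (1.21 ± 0.39). With the surgery day as a replicate block the comparison with contralateral cortex gave 1.26 and an adjusted p of 0.0377, which brought the members called at 6 h to 2. At 12 h the levels were 0.93, 1.13 and 2.7 CPM in ipsilateral cortex, against 0.78, 0.371 and 0.696 CPM in contralateral cortex. That call (1.37 ± 0.41, adjusted p 0.0282) was lost without ipsilateral replicate 3 (0.75, 0.304), contralateral replicate 2 (1.1, 0.142) or contralateral replicate 3 (1.47, 0.06). The 12 h call against sham (1.44, 0.0241) was lost without ipsilateral replicate 3 (0.82, 0.272), sham replicate 2 (1.34, 0.0964) or sham replicate 3 (1.37, 0.0865). At 3 h Mmp19 had 0.679, 1.87 and 1.52 CPM in ipsilateral cortex, against 0.834, 0.29 and 0.679 CPM in contralateral cortex, a log2 difference of 1.22 ± 0.42 with overlapping groups (adjusted p 0.275). Mmp19 shares 789 exonic bases with Tmem198b on the opposite strand, and no source used here gives the strand setting of the counting.

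Of the gelatinases, which cleave type IV collagen, Mmp9 was called in ipsilateral cortex against sham at 24 h and Mmp2 was not called at any time. Mmp9 (gelatinase B, chr2:164940780-164955850) had 3.08, 2.34 and 1.58 CPM at 24 h in ipsilateral cortex, against 0.679, 1.48 and 1.56 CPM in contralateral cortex and 0.764, 0.956 and 0.816 CPM in sham. Every ipsilateral library stood above every contralateral and sham library, the lowest by a narrow margin. The call was reached against sham (1.46 ± 0.41, adjusted p 0.0115) and not against contralateral cortex (0.91 ± 0.4, 0.106). Without sham replicate 1 the adjusted p against sham was 0.0524, and without ipsilateral replicate 1 it was 0.0607. Earlier ipsilateral means of Mmp9 were 0.965 ± 0.188 CPM at 3 h, 1.29 ± 0.124 CPM at 6 h and 1.48 ± 0.517 CPM at 12 h (SD, n = 3 each), against 0.845 ± 0.099 CPM in sham. Mmp2 (gelatinase A, chr8:92827291-92853420) ran from 0.604 to 1.84 CPM in all 27 libraries and was called in no comparison. At 24 h it averaged 1.05 ± 0.116 CPM in ipsilateral cortex, 1.29 ± 0.288 CPM in contralateral cortex and 1.37 ± 0.304 CPM in sham.

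Mmp14 encodes the membrane-anchored MT1-MMP, which activates pro-MMP2 in a complex with TIMP2 (chr14:54431612-54445364). At 24 h it had 10.3, 6.92 and 4.43 CPM in ipsilateral cortex, against 4.84, 5.95 and 5.55 CPM in contralateral cortex and 3.15, 3.3 and 2.97 CPM in sham. Ipsilateral cortex was clear of sham (1.19 ± 0.25, adjusted p 0.00104) but overlapped contralateral cortex (0.4 ± 0.24, 0.257). The contralateral libraries themselves stood above all sham libraries at 24 h, by 0.79 ± 0.25 on the log2 scale, with an unadjusted p of 0.00323 and an adjusted p of 0.303. Ipsilateral means were 3.83 ± 0.634 CPM at 3 h, 4.98 ± 1.13 CPM at 6 h and 4.72 ± 0.764 CPM at 12 h. At 6 and 12 h all ipsilateral libraries stood above all sham libraries, with adjusted p of 0.109 and 0.132. With only the libraries of the 2 groups fitted these were called (0.0289 and 0.0377), and the 6 h difference also without both libraries that stood apart (0.0428).

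Timp1 encodes the inhibitor that cytokines and injury are known to induce in many tissues, and that binds pro-MMP9 (chrX:20870166-20874735). At 24 h it had 14.3, 6.48 and 3 CPM in ipsilateral cortex, against 1.04, 0.819 and 1.53 CPM in contralateral cortex and 0.834, 0.341 and 0.408 CPM in sham. The groups did not overlap. The log2 fold change was 2.8 ± 0.58 against contralateral cortex (edgeR adjusted p 0.00192) and 3.88 ± 0.62 against sham (0.0002). Without ipsilateral replicate 1 these were 2.05 (0.0119) and 3.14 (0.000672), so both calls held at a smaller size. At 12 h Timp1 had 2.12, 2.75 and 6.22 CPM in ipsilateral cortex, against 2.82, 1.37 and 2.67 CPM in contralateral cortex. The hemispheres overlapped there (0.7 ± 0.54, adjusted p 0.465), while ipsilateral cortex was called against sham (2.79 ± 0.62, 0.00556; 2.19 and 0.0364 without ipsilateral replicate 3).

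Before 24 h the Timp1 levels of the hemispheres overlapped. At 3 h it had 1.3, 1.29 and 2.45 CPM in ipsilateral cortex, against 0.777, 1.11 and 1.92 CPM in contralateral cortex, and the contralateral libraries overlapped sham (adjusted p 0.603). At 6 h it had 1.24, 1.64 and 2.66 CPM in ipsilateral cortex, against 3.54, 0.979 and 2.42 CPM in contralateral cortex. All 3 libraries of each hemisphere were above all 3 sham libraries at 6 and 12 h. Contralateral cortex differed from sham by 2.12 ± 0.62 at 6 h (unadjusted p 0.00251, adjusted p 0.649) and by 2.09 ± 0.62 at 12 h (0.00285, 0.233), short of a call. DESeq2 called Timp1 in contralateral cortex at 12 h (adjusted p 0.0487), as did edgeR with only the 2 groups fitted (0.0154). Ipsilateral cortex was not called against sham at 3 or 6 h in the main edgeR fit. At 6 h DESeq2 called it (0.0372), as did edgeR without both libraries that stood apart (0.0445). With only the 2 groups fitted, edgeR called it at 3 h (0.0493) and 6 h (0.00385). At 24 h the contralateral difference from sham was 1.08 ± 0.63 (adjusted p 0.872).

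**Figure D2:**
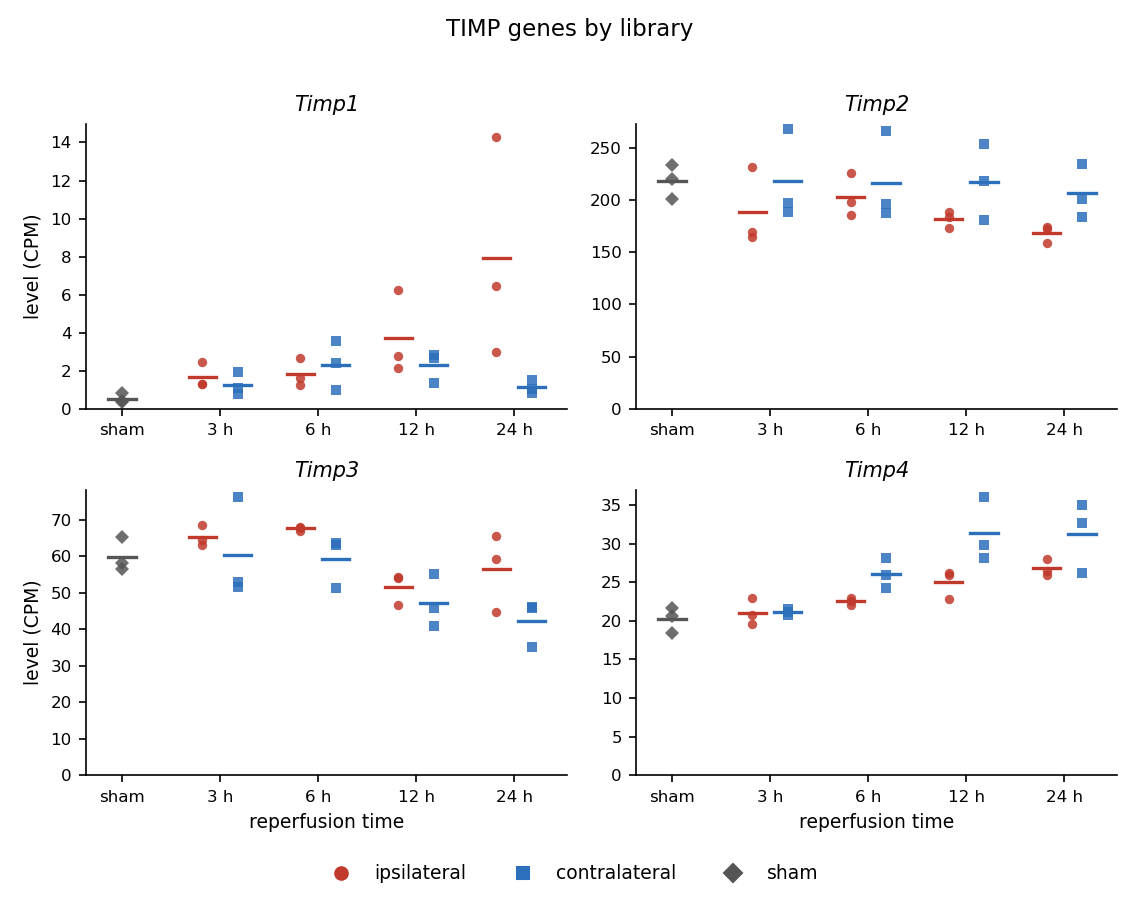
Level in CPM of the 4 TIMP genes in each of the 27 libraries by reperfusion time, on linear axes that start at 0, with sham at the left; red circles are ipsilateral, blue squares contralateral and grey diamonds sham libraries, and bars are means of 3. Timp1 in ipsilateral cortex at 24 h lies at 3 to 14.3 CPM, above all contralateral libraries of that time, Timp2 lies between 159 and 268 CPM throughout, and the highest Timp4 levels are in contralateral cortex at 12 and 24 h.

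Timp2, the most abundant inhibitor and the partner of MMP14 in pro-MMP2 activation, varied little (chr11:118301069-118355740). Over all 27 libraries it ran from 159 to 268 CPM. At 24 h it had 172, 159 and 174 CPM in ipsilateral cortex, against 184, 235 and 201 CPM in contralateral cortex and 201, 220 and 234 CPM in sham. All 3 ipsilateral libraries were lower than every other library of these groups, but the differences of -0.3 ± 0.15 (adjusted p 0.169) and -0.38 ± 0.15 (0.07) were not called. With only the libraries of the 2 groups fitted, the difference from sham was called (-0.37, adjusted p 0.0147).

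Timp3, an inhibitor that binds to the matrix and also blocks the sheddase ADAM17, differed between the hemispheres at 24 h (chr10:86300372-86349506). It had 65.4, 44.8 and 59.2 CPM in ipsilateral cortex, against 45.9, 35 and 46 CPM in contralateral cortex and 56.4, 58 and 65.1 CPM in sham. Ipsilateral levels overlapped those of both other groups, and the contralateral libraries were the low ones, all below sham (-0.5 ± 0.15, unadjusted p 0.00227, adjusted p 0.274). The call against contralateral cortex (0.42 ± 0.15, adjusted p 0.0487) lay at the threshold. It was lost without contralateral replicate 1 (0.0632) or 2 (0.239), without ipsilateral replicate 1 (0.237) or 3 (0.127), without a filter on low counts (0.0539) and with only the 2 groups fitted (0.103). Against sham Timp3 differed by -0.08 ± 0.15 at 24 h (adjusted p 0.729).

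Timp4, whose expression is more restricted than that of the other TIMPs and includes brain and heart, was the member called in contralateral cortex (chr6:115241892-115252205). At 12 h it had 36.1, 29.8 and 28.1 CPM in contralateral cortex, against 18.4, 20.6 and 21.7 CPM in sham, and at 24 h the contralateral libraries had 35, 32.7 and 26.2 CPM. The contralateral and sham groups did not overlap, and the log2 fold change was 0.63 ± 0.12 at each time (adjusted p 0.00938 at 12 h and 0.0151 at 24 h). Contralateral replicate 1, the highest, also had the highest summed choroid plexus markers of its group, 84 CPM at 12 h and 190 CPM at 24 h, against 4.2 to 14.7 CPM in replicates 2 and 3 of these times. All 7 of these markers had counts in every group. Contralateral replicate 1 of 6 h had a sum of 414 CPM and the highest Timp4 level of its group (28.2 CPM). Ipsilateral replicate 1 was also highest in both at 12 and 24 h. Ipsilateral replicate 1 had high sums at 3 h (721 CPM) and 6 h (345 CPM) too, where its Timp4 level was 19.6 and 22.6 CPM and not the highest of its group. Contralateral replicate 1 of 3 h and sham replicate 2 were likewise highest in the markers only. Other marker lists also had contralateral replicate 1 on top. At 12 h it was highest in monocyte and macrophage, microglial, endothelial, mural cell, astrocyte, oligodendrocyte and striatal markers too. At 24 h it was highest in monocyte and macrophage, meningeal fibroblast and cortical neuron markers too. In the remaining lists of each time it was not the highest. The part of any of these markers in the Timp4 level was not tested. The 12 h call was lost without contralateral replicate 1 (adjusted p 0.0675) or sham replicate 1 (0.149). The 24 h call was lost without contralateral replicates 1 (0.131) or 2 (0.0867) or sham replicates 1 (0.182) or 2 (0.0975). In ipsilateral cortex at 24 h Timp4 had 28, 26.5 and 25.9 CPM, above all sham libraries (0.4 ± 0.12, adjusted p 0.0127; 0.0811 without sham replicate 1). Its difference from contralateral cortex was -0.33 ± 0.11 at 12 h (adjusted p 0.0601), with all 3 ipsilateral libraries lower, and -0.23 ± 0.11 at 24 h (0.172).

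Timp1, Timp3 and Timp4 lie within the synapsin genes Syn1, Syn3 and Syn2, on the opposite strand, and synapsins coat synaptic vesicles in neurons. Timp1 shares no exonic base with Syn1, Timp3 shares 1733 with Syn3 and Timp4 shares 90 with Syn2. At 24 h Syn1 averaged 136 ± 9.49 CPM in ipsilateral cortex and 205 ± 3.18 CPM in contralateral cortex (SD, n = 3 each), a log2 difference of -0.59 ± 0.1 (adjusted p 0.000214). Timp1 rose in the same comparison. Syn2 (-0.24 ± 0.11, adjusted p 0.123) and Syn3 (-0.05 ± 0.19, 0.896) were not called. Because the strand setting is not given, reads from the shared bases of Timp3 and Syn3, and of Timp4 and Syn2, cannot be assigned with certainty.

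**Figure D3:**
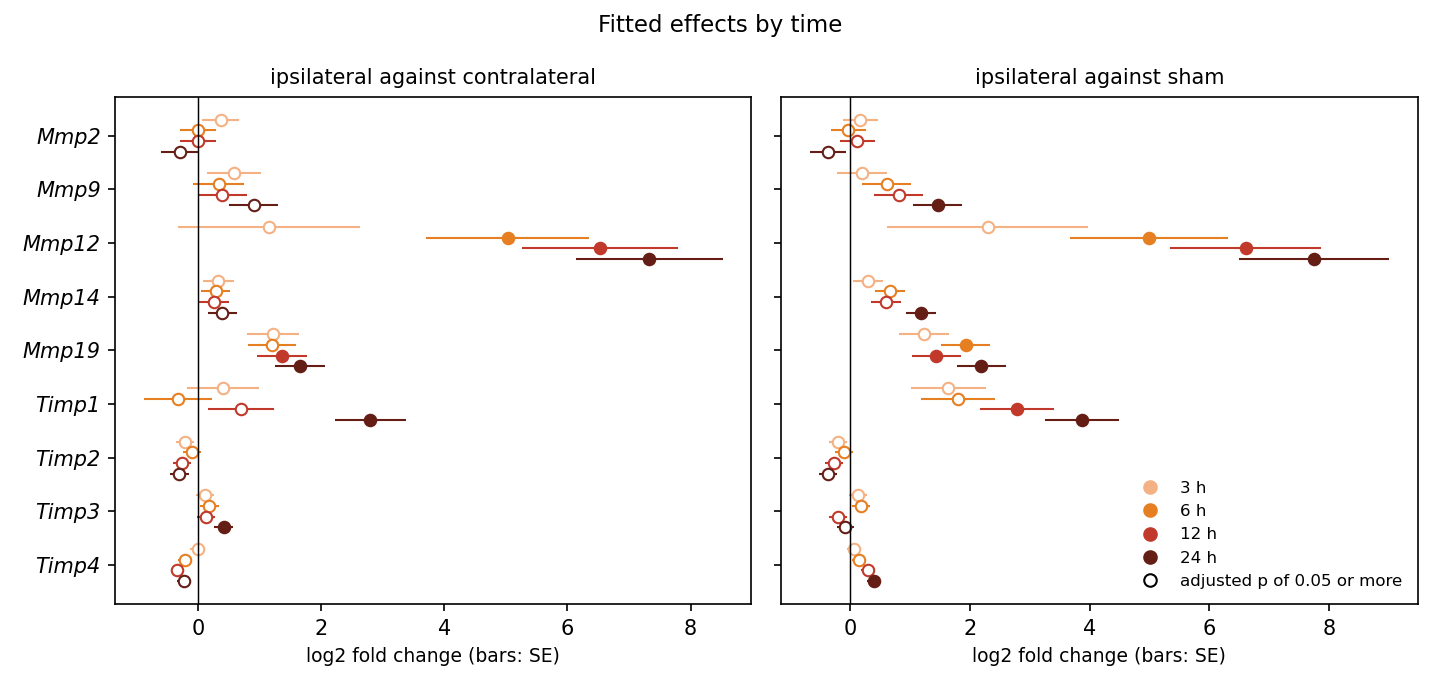
Fitted log2 fold changes of 9 members at 3, 6, 12 and 24 h, ipsilateral against contralateral on the left and against sham on the right; bars are SE, and open circles have an adjusted p of 0.05 or more. Mmp3 is left out because its fitted value depends on groups at 0 counts. Mmp12 moves from 1.16 at 3 h to 7.33 at 24 h on the left, and Timp1 has 0.41, -0.32, 0.7 and 2.8 at the 4 times.

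Whether the ipsilateral to contralateral difference itself changed with time was tested directly, and no member reached the threshold in edgeR. The effect at 24 h exceeded that at 3 h by 6.17 ± 2.31 for Mmp12 (adjusted p 0.134), 2.39 ± 0.81 for Timp1 (0.0993) and 0.44 ± 0.58 for Mmp19 (0.706), and no member was called, against 3.32% of tested genes. For Mmp3 the same test gave an adjusted p of 0.243. The joint test over the 4 times called no member either (1.34% of tested genes), with Timp1 nearest at 0.118. Unadjusted p under 0.05 was reached by 2 members in the first test and by 1 in the second. DESeq2 called 3 members in the first (Mmp3, Mmp12 and Timp1) and 2 in the second (Mmp3 and Timp1). Without ipsilateral replicate 3 at 24 h edgeR called Timp1 in both tests (0.0434 and 0.0341).

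The ipsilateral libraries of 24 h differed among themselves in the same order for several members. Replicate 1 was highest and replicate 3 lowest for Mmp3, Mmp12, Mmp9, Mmp14 and Timp1, with the values given above. Mmp2 (1.13, 1.12 and 0.921 CPM) and Timp4 (28, 26.5 and 25.9 CPM) had the same order over a narrow range, and Mmp19, Timp2 and Timp3 did not. Most marker lists had this order too, those of immune cells among them. The summed level of 7 neutrophil markers (Ly6g and Elane have no row) was 13.4, 5.53 and 2.1 CPM in ipsilateral replicates 1, 2 and 3, against 1.1 to 2.11 CPM in contralateral and 0.592 to 1.32 CPM in sham libraries. All 7 markers had counts in ipsilateral and contralateral cortex at 24 h, and Ltf was at 0 in sham. The 8 monocyte and macrophage markers summed to 53.6, 28.4 and 17 CPM in ipsilateral replicates 1, 2 and 3, against 12 to 27.4 CPM in contralateral and 16.4 to 27.9 CPM in sham libraries, with none at 0. The 8 endothelial markers ran the same way in ipsilateral cortex (314, 187 and 130 CPM), against 139 to 184 CPM in contralateral cortex. Markers of meningeal fibroblasts (93.8, 64.1 and 44.2 CPM), red blood cells (90.8, 65.3 and 44.4 CPM) and microglia (237, 213 and 136 CPM) had this order as well, as did those of striatal neurons, oligodendrocytes, mural cells and choroid plexus. Cortical neuron markers had the opposite order (1350, 1510 and 1790 CPM), and astrocyte markers had neither. At 12 h ipsilateral replicate 3 was highest in every MMP member, Timp1 and Timp3, and lowest in Timp2 and Timp4. Its neutrophil sum was also the highest (6.49 CPM, against 0.93 and 1.69 CPM in ipsilateral replicates 1 and 2). So were its monocyte and macrophage (26.5 CPM), red blood cell (77.9 CPM) and astrocyte sums (3870 CPM), but not its other marker sums. Its mitochondrial share, 33.9%, was the highest of its group too. What part these cell types, or the mitochondrial shares of this library and of ipsilateral replicate 1 at 24 h, have in the levels was not tested. Without ipsilateral replicate 1 at 24 h and contralateral replicate 1 at 3 h, 4 members were still called against contralateral cortex at 24 h (Mmp3, Mmp12, Mmp19 and Timp1).

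**Figure D4:**
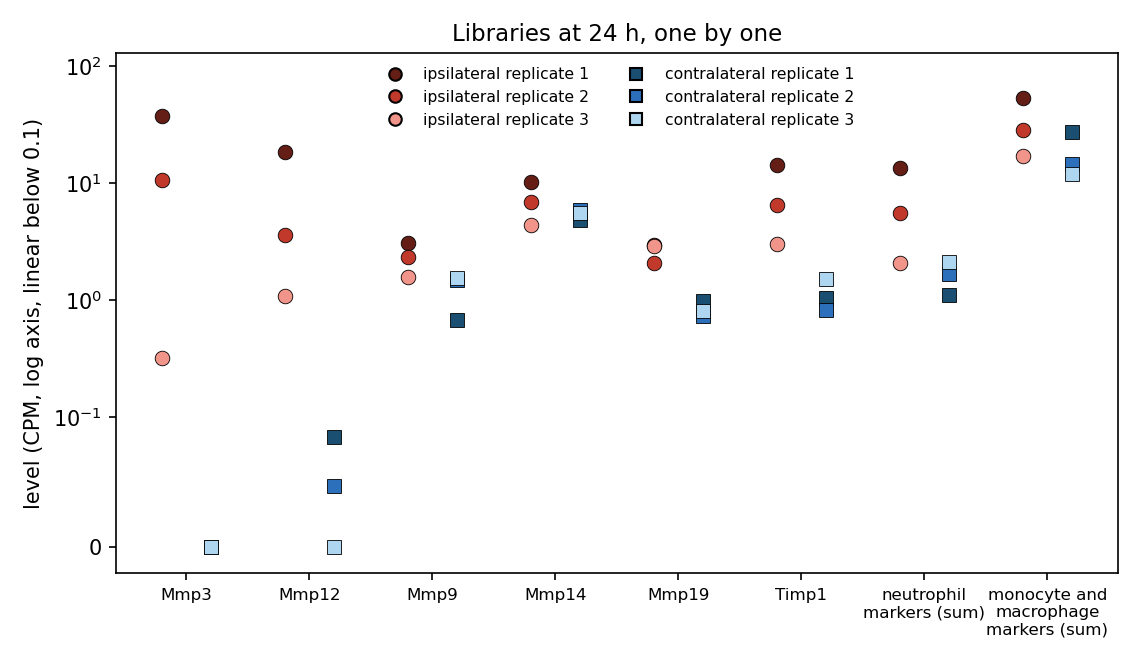
Level in CPM of 6 members and the summed CPM of neutrophil and of monocyte and macrophage markers in the 6 libraries of 24 h, on an axis that is logarithmic above 0.1 CPM and linear below; red circles are ipsilateral and blue squares contralateral replicates, darkest for replicate 1. Ipsilateral replicate 1 is on top for Mmp3 (37.4), Mmp12 (18.5), Timp1 (14.3) and the neutrophil sum (13.4), and replicate 3 is at the bottom of the ipsilateral set for these.

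The makeup of the TIMP RNAs shifted toward Timp1. Per kb of exons, Timp1 held 22.1%, 12.6% and 5.67% of the summed TIMP level in ipsilateral cortex at 24 h, against 1.95%, 1.3% and 2.73% in contralateral cortex and 1.5%, 0.569% and 0.636% in sham. All 3 ipsilateral shares were higher. On CPM without gene length the shares were 5.11%, 2.74% and 1.15% in ipsilateral cortex, against 0.391%, 0.27% and 0.559% in contralateral cortex and 0.301%, 0.114% and 0.127% in sham, smaller in size and still without overlap. Timp2 held 68.5% ± 7.35 in ipsilateral cortex, 81.6% ± 3.07 in contralateral cortex and 83.1% ± 0.643 in sham (SD, n = 3 each). The summed TIMP level was 63.6 ± 8.16 in ipsilateral, 64.8 ± 5.75 in contralateral and 67.5 ± 4.82 in sham libraries. The summed level of the 6 MMP genes per 100 of the summed TIMP level was 37.2, 15.7 and 4.39 in ipsilateral cortex at 24 h, against 2.74, 2.96 and 3.03 in contralateral cortex and 2.11, 1.95 and 1.92 in sham. Mmp3 and Mmp12 made up 86.1%, 69.8% and 12.5% of the ipsilateral MMP sum, and the ratio was high where these 2 genes were. At 6 h the ratio was 3.66 ± 0.445 in ipsilateral cortex and 2.37 ± 0.197 in contralateral cortex. The MMP sum covers only the 6 members and leaves out more abundant MMP genes. At 24 h Mmp17 had 117 CPM in ipsilateral and 131 CPM in contralateral cortex, and Mmp16 had 48.4 and 48.1 CPM. On CPM without gene length the 6 members summed to 37.1 ± 32.4 and 8.86 ± 1.03 in these groups. A ratio over all MMP genes was not computed. These shares are ratios of RNA levels and not of proteins.

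**Figure D5:**
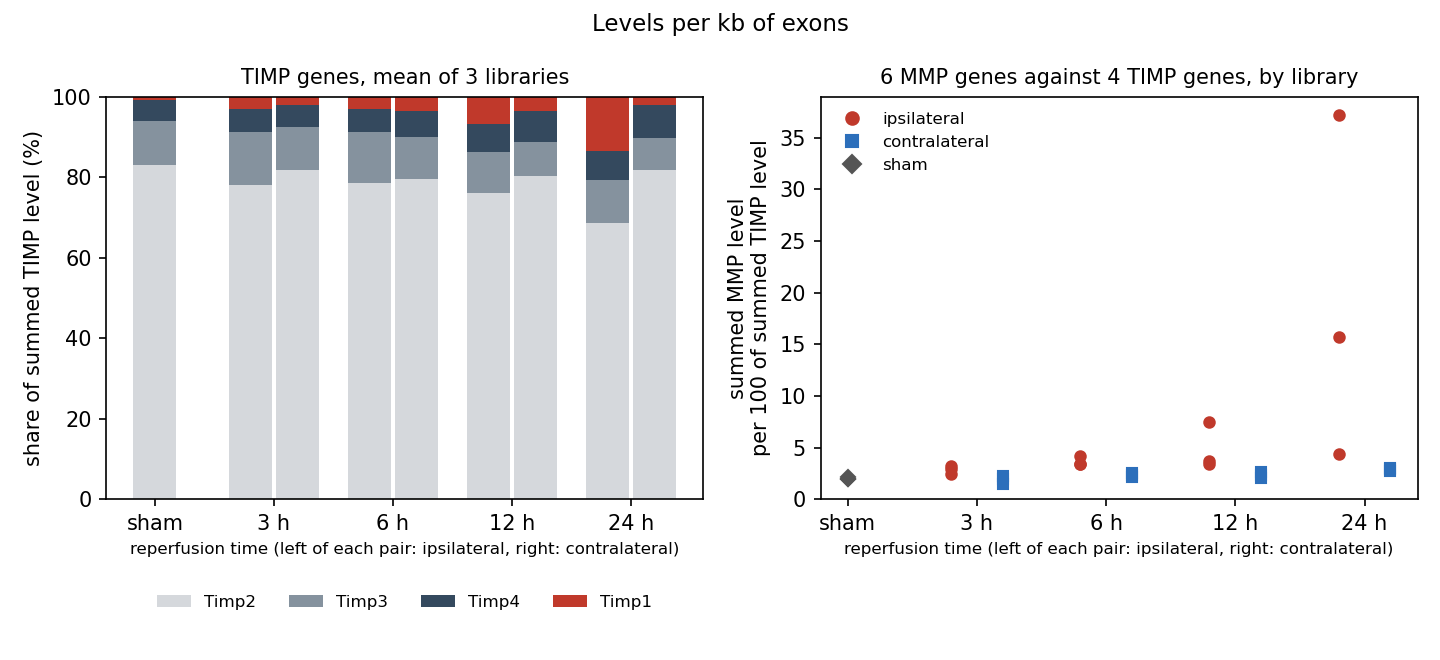
Left, stacked mean share in percent of each TIMP gene in the summed TIMP level per kb of exons, with ipsilateral left and contralateral right in each pair and sham at the far left; right, summed level of the 6 MMP genes per 100 of the summed level of the 4 TIMP genes, with 1 point per library. The Timp1 share is 13.4% in ipsilateral cortex at 24 h, and the ratio on the right is 4.39 to 37.2 there, against 2.74 to 3.03 in contralateral cortex.

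Genes of the same pathway were counted from lists made with earlier results of these data known, for ipsilateral against contralateral cortex at 24 h. Of 17 other MMP genes 10 were abundant enough to be tested, and 3 were called, all higher, with a median log2 fold change of 0.26. Over all tested genes 19.1% were called in this comparison, 1762 higher and 1693 lower, with a median of 0.03, and the counts of the lists that follow are to be read against these. Mmp13, a collagenase in the same run of genes on chromosome 9, averaged 0.362 ± 0.15 CPM in ipsilateral and 0.0142 ± 0.0245 CPM in contralateral cortex (4.34 ± 1.15, adjusted p 0.00924). It had 203 counts over all 27 libraries and group means of 0 to 0.123 CPM in sham and contralateral cortex. Its presence among the tested genes therefore already required ipsilateral counts. Mmp23 (1.14 ± 0.34, 0.0198) and Mmp21 (1.44 ± 0.47, 0.0309) were the other genes called. The abundant membrane-type genes Mmp15, Mmp16, Mmp17 and Mmp24 had log2 fold changes between -0.15 and 0.01 and were not called. These 4 names were chosen after their values were seen.

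Of 14 ADAM and ADAMTS genes, which encode related metalloproteinases, 6 were higher and 3 lower, with a median of 0.41 (19.1% of all tested genes were called). Adam8, a proteinase of leukocytes, had 25.4 ± 22.3 CPM in ipsilateral cortex and 1.66 ± 0.371 CPM in contralateral cortex (15.3-fold, adjusted p 0.000186), and Adamts9 had 41.1 ± 28.1 and 4.51 ± 1.65 CPM (9.11-fold, 0.000983). Adam23, a neuronal member without proteinase activity, was 1.46-fold lower (0.000721). Among 16 activators, receptors and other inhibitors 7 were higher and 3 lower, with a median of 0.24, again beside 19.1% of all tested genes. Cd44, a hyaluronan receptor that can dock MMPs at the cell surface, was 9.24-fold higher (7.49e-05), and the proteoglycan gene Spock1 was 1.5-fold lower (0.000256).

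Of 21 genes for basement membrane, tight junction and brain matrix proteins, 10 were higher and 1 lower at 24 h, with a median of 0.4, where 19.1% of all tested genes were called. The collagen IV gene Col4a1 averaged 134 ± 59.6 CPM in ipsilateral cortex and 48.5 ± 8.62 CPM in contralateral cortex (2.75-fold, adjusted p 0.00046). Nid2 (2.51-fold, 0.000987) and Lamc1 (1.49-fold, 0.00121), which encode a nidogen and a laminin chain of the basal lamina, were also higher. Of 16 cytokines and AP-1, ETS and NF-kappaB factors, 5, 9, 4 and 10 genes were called at the 4 times in order, all higher, while 0.249%, 7.99%, 12.2% and 19.1% of all tested genes were called. At 24 h Tnf had 1.73 ± 0.19 CPM in ipsilateral cortex and 0.0439 ± 0.0425 CPM in contralateral cortex (36-fold, 1.35e-05), Il1b was 9.11-fold higher (0.00147) and Il1a 4.97-fold higher (0.00257). At 3 h Tnf was 25.5-fold higher (0.0039), with 0.803 ± 0.324 CPM in ipsilateral and 0.0347 ± 0.0381 CPM in contralateral cortex. Its group means in sham and contralateral cortex were 0.0347 to 0.105 CPM, so its presence among the tested genes also required ipsilateral counts. Other called genes of this list were low in contralateral cortex at 24 h too, with 0 CPM for Il6, 0.0921 CPM for Osm and 0.0962 CPM for Fosl1. Whether these passed the filter only with ipsilateral libraries was not checked, which limits the comparison with the share of all tested genes. Whether any of these factors acts on the members was not tested.

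The genes whose log2 level over the 27 libraries was most like each member were found among 14162 other genes with a mean of at least 1 CPM, as a description over libraries that share groups and scaling. Mmp3 was most like Msn (r = 0.943, Spearman rho = 0.71), Nckap1l (0.941, 0.677) and Adam8 (0.937, 0.711). Mmp3 had 0 counts in 13 of the 27 libraries. Mmp12 was most like A2m (0.941, 0.861), Plek (0.934, 0.883) and Piezo1 (0.92, 0.82), where A2m encodes the general proteinase inhibitor alpha-2-macroglobulin. For Timp1 these were Ifitm3 (0.849, 0.772), Spp1 (0.82, 0.806) and Tnfrsf1a (0.818, 0.802), and for Mmp19 Steap4 (0.867, 0.832), Ptbp1 (0.845, 0.831) and Ifi30 (0.844, 0.808). Mmp9 was most like Glis3 (0.852, 0.855), Mmp14 most like Fes (0.862, 0.782), and Mmp2 most like Galnt12 at a lower 0.684 (0.494). The nearest genes of the abundant inhibitors were Entpd6 for Timp2 (0.897, 0.91) and Msmo1 for Timp3 (0.851, 0.794).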

How the data were processed

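Ribosome-depleted total RNA from 27 cortex samples was sequenced, and the authors deposited 1 table of raw counts per gene with 22340 rows. Per the submitters' processing notes, STAR 2.5.0a, featureCounts 1.4.3-p1, edgeR and the mm10 build were used. The sources used here do not give the annotation, the strand setting or the handling of read mates. No sample column was left unused. Library totals ran from 26505996 to 48830897 counts, and intervals and floors (95%) cover counting error only.

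Counts as deposited were fitted in edgeR 4.0.16 (R 4.3.3, limma 3.58.1) with 1 quasi-likelihood model of all 9 groups, TMM scaling and edgeR's expression filter (count minimum 10, total minimum 15). This left 18087 genes for the tests and set 4253 rows aside. The fit had 18 residual degrees of freedom and a common BCV (biological coefficient of variation) of 0.175. P-values were two-sided and adjusted by Benjamini-Hochberg over all tested genes, with a threshold of 0.05. The fit was tested on simulated data with the same spread for all genes. That setting does not cover members as variable as Mmp3 and Mmp12 in ipsilateral cortex at 24 h. DESeq2 1.42.0 was an alternative. Tables and figures used Python 3.11.15, pandas 2.3.3, scipy 1.17.1 and matplotlib 3.10.9.

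Replicate numbers mark the day of surgery, per the series' design text, so they pair samples across groups. Same-numbered samples had a mean correlation of deviations of 0.047 over 108 pairs (31 above 0.1), and differently numbered ones -0.024 over 216 pairs (15 above 0.1). The members and lists were chosen with earlier results of these data known. The text names all 10 members, up to 3 genes per pathway list with the smallest p among those called at 24 h, the 3 synapsin host genes, and up to 3 genes most like each member (log2 CPM with a prior count of 2). Some genes that this rule names are not reported here. Protein sequences were not analysed here.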

Additional observations from a re-analysis of the deposited data

How the results depend on the processing

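The number of members called stayed within 1.5 times in all 14 comparisons with RLE size factors, with no filter on low counts and with a filter of at least 1 CPM in 3 libraries. With the replicate block it did so in 13 of 14, and the exception was ipsilateral against contralateral cortex at 6 h, with 2 members, where Mmp19 was gained. The block changed no other such count. DESeq2 called 2 members in that comparison, 2 in contralateral cortex against sham at 12 h, 3 for the 24 h effect minus the 3 h effect, and 2 for the joint test over times. With only the groups compared in the fit, 2 members were called against contralateral cortex at 6 h and 2 at 24 h, 1 against sham at 3 h and 4 at 6 h, and 2 in contralateral cortex at 12 h. Without both libraries that stood apart, 2 were called against contralateral cortex and 4 against sham at 6 h, and the Mmp12 effect at 24 h minus that at 3 h turned to -0.26 (adjusted p 0.857), since the remaining contralateral 3 h libraries have no Mmp12 count. Leaving out 1 library at a time gave 0 to 0, 0 to 2, 1 to 2 and 4 to 6 members against contralateral cortex at 3, 6, 12 and 24 h, and 0 to 0, 1 to 2, 2 to 3 and 5 to 7 against sham. It gave 0 to 0, 0 to 0, 0 to 1 and 0 to 1 in contralateral cortex, and 0 to 1 in both tests of time. On CPM without gene length 35 of 36 mean TIMP shares moved by more than their spread, and per kb of the longest principal transcript, an alternative chosen after seeing the data, 18 of 36 did. Counts of a few reads limit Mmp3 and Mmp12 outside ipsilateral cortex. Samples on 3 surgery days per group measure the spread between those samples.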
